A study of Mus musculus with 4 samples.

Results

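The mouse mitochondrial genome encodes 7 subunits of respiratory complex I (NADH dehydrogenase): mt-Nd1, mt-Nd2, mt-Nd3, mt-Nd4, mt-Nd4l, mt-Nd5 and mt-Nd6. They were chosen by their gene symbols, and are 7 of the 32285 genes in the count matrix and 7 of its 13 genes with an mt- symbol. All 7 were detected in every library. The study profiled single mouse embryonic stem cells (mESC) of the male E14tg2a.4 line (WT, 2 samples) and from a line derived from it that carries a heterozygous gene-trap truncation of the splicing factor gene Srrm2 (Srrm2 hKO, 2 samples). Both were grown on gelatin with LIF, which maintains the undifferentiated state. The labels give growth in serum-free medium as 24 h or 72 h, with no length tied to a particular sample, while the single-cell methods of the study give a single other length. The Srrm2 hKO group rests on a single gene-trap line. The matrix joins 4 libraries by number, and nothing used here ties a library number to a sample, so Srrm2 hKO could not be set against WT, and libraries are described singly, by number.

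Complex I takes electrons from NADH, passes them to ubiquinone and pumps protons across the inner mitochondrial membrane. Its membrane arm is built around the subunits made inside the organelle, whereas the peripheral arm that binds NADH and many small accessory subunits are encoded in the nucleus. mt-Nd1 lies at the ubiquinone site, mt-Nd2, mt-Nd4 and mt-Nd5 are the antiporter-like pumping subunits, and mt-Nd3, mt-Nd4l and mt-Nd6 are small subunits that join the ubiquinone site to the pumps. Mitochondrial mRNAs are cut from long transcripts of each strand, mostly at tRNAs, and most carry short poly(A) tails. mt-Nd4l and mt-Nd4 stay together on 1 mRNA, as do mt-Atp8 and mt-Atp6, and mt-Nd6 is the only protein gene read from the light strand.

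The assay counts transcripts from their 3′ ends, but the end of an annotated gene need not be the end of its mRNA. That of mt-Nd4l lies within the mRNA it shares with mt-Nd4. For mt-Nd5 and mt-Nd6 no annotated gene directly follows on the same strand, so the annotation does not place the ends of their mRNAs. The last 30 bases of each annotated gene are given here (GENCODE on GRCm38, 5′ to 3′ on the coding strand, stop letters in capitals).
mt-Nd1: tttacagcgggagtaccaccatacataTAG
mt-Nd2: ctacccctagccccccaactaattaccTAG
mt-Nd3: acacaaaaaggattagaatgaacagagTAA
mt-Nd4l: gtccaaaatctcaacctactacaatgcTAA
mt-Nd4: gtccaaaactaattacaggcctgacaataT
mt-Nd5: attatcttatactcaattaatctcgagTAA
mt-Nd6: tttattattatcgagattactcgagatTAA
mt-Nd4 ends on a lone T, and the stop codon of such genes is completed by the poly(A) tail. mt-Nd1 (ENSMUSG00000064341) lies at chrM:2751-3707, mt-Nd2 (ENSMUSG00000064345) at chrM:3914-4951, mt-Nd3 (ENSMUSG00000064360) at chrM:9459-9806, mt-Nd4l (ENSMUSG00000065947) at chrM:9877-10173, mt-Nd4 (ENSMUSG00000064363) at chrM:10167-11544 and mt-Nd5 (ENSMUSG00000064367) at chrM:11742-13565, all on the plus strand. mt-Nd6 (ENSMUSG00000064368) lies at chrM:13552-14070 on the minus strand. All are genes without introns. mt-Nd4l overlaps the start of mt-Nd4 by 7 bases, and the 3′ ends of mt-Nd5 and mt-Nd6 overlap by 14 bases on opposite strands.

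Annotated transcripts of nuclear copies of mitochondrial genes share sequence with 6 of the 7. Copies without an annotated transcript were not sought. The closest annotated copies match mt-Nd4l at 100% over 294 bases, the first 876 bases of mt-Nd4 at 100% and mt-Nd3 at 99.7% over 345 bases, all on chromosome 1. The longest matches of mt-Nd2 and mt-Nd6 were 96.7% and 93.6% identical, 2 copies matched mt-Nd5 at 95.2% over 954 bases and at 92.4% over 1055 bases, and no copy of at least 100 aligned bases was found for mt-Nd1. None of the 21 annotated copies of the 13 mt- genes is among the counted genes, and whether reads were lost or gained through them was not tested.

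The matrix held 41142 barcodes. A cell was kept when neither its unique molecular identifiers (UMIs) nor its detected genes fell over 1 SD below the mean of its library and its mt- share was at most 10%, which left 31989 cells (7464 to 8514 per library) with 166839268 to 200180473 UMIs per library. Libraries 1 to 4 had medians of 18378, 21898, 19405 and 21438 UMIs per kept cell. Of the distinct barcode sequences, 160 (0.390%) occurred in more than 1 library. Pou5f1 (663 to 847 UMIs per 1000000, CPM) and Sox2 (300.0 to 419 CPM), transcription factors of pluripotent cells, were present in every library, and 5 fibroblast collagen and matrix genes summed to 0.545 to 10.4 CPM. Srrm2 was at 387, 533, 238 and 356 CPM in libraries 1 to 4. All intervals below are 95% counting intervals and cover counting error only. Every cell has mitochondria, so no cell type here can show how many mt- UMIs come from free RNA.

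Summed over the 7 genes, complex I transcripts made up 0.975%, 0.967%, 0.933% and 0.829% of the UMIs of kept cells in libraries 1 to 4, whereas all mt- genes together made up 5.30%, 4.09%, 4.38% and 3.47%. The sum of the 6 other mt- genes therefore varied more. It ranged 1.64-fold (1.64 to 1.64) between the highest and the lowest library, compared with 1.18-fold (1.17 to 1.18) for the complex I sum. Taken singly the genes did not differ in this way, with median ranges of 1.65-fold for the 7 complex I genes and 1.64-fold for the 6 others. As a share of mt- UMIs, complex I was 18.4%, 23.7%, 21.3% and 23.9%, a range of 1.30-fold (1.30 to 1.30), lowest in library 1 and highest in library 4. Without library 4 the range of the complex I share of all UMIs was 1.05-fold, and without library 1 the range of its share of mt- UMIs was 1.12-fold.

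mt-Nd1, the subunit at the ubiquinone site, was the most abundant member, at 3760.1, 4404, 3807 and 3561 CPM in libraries 1 to 4. Library 2 was highest and library 4 lowest, 1.24-fold apart (1.23 to 1.24). Its share of mt- UMIs ran differently, at 7.10%, 10.8%, 8.69% and 10.3%, with library 1 lowest. A kept cell held a median of 68 to 93 mt-Nd1 UMIs.

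Among the pumping subunits, mt-Nd4 was at 3124, 2197, 2746 and 1895 CPM and mt-Nd2 at 2176, 2041, 2059.8 and 1752 CPM in libraries 1 to 4. Library 1 had the highest and library 4 the lowest level of both, with mt-Nd4 1.65-fold (1.64 to 1.66) and mt-Nd2 1.24-fold (1.24 to 1.248) apart. mt-Nd5 was far lower, at 249, 307, 257 and 300.1 CPM, and was highest in library 2. Within the mt- UMIs mt-Nd4 held 5.90%, 5.38%, 6.27% and 5.47%, so it was higher in libraries 1 and 3 than in the other 2. mt-Nd5 went the other way, with 0.470%, 0.751%, 0.586% and 0.866% of mt- UMIs, and mt-Nd2 held 4.11%, 4.996%, 4.70% and 5.06%.

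The 3 small connecting subunits had the widest ranges of the 7. mt-Nd3 was at 313, 468, 274 and 467 CPM, highest in library 2 and 1.71-fold (1.69 to 1.72) above library 3. mt-Nd4l was at 107, 204, 161 and 268 CPM, highest in library 4 and 2.51-fold (2.47 to 2.55) above library 1. It shares an mRNA with mt-Nd4, which was lowest in library 4. Its CPM therefore count the UMIs assigned to the gene and are not the level of a separate mRNA. mt-Nd6, the light-strand gene, was at 19.5, 49.3, 22.0 and 47.9 CPM, 2.52-fold (2.42 to 2.62) higher in library 2 than in library 1. For each of these 3 genes both library 2 and library 4 lay above both library 1 and library 3, with intervals that did not overlap. Their shares of mt- UMIs ranged 2.28-fold for mt-Nd3, 3.84-fold for mt-Nd4l and 3.75-fold for mt-Nd6. Without library 1 the mt-Nd4l range fell to 1.66-fold in CPM and 2.10-fold within the mt- UMIs, and without library 4 the latter was 2.48-fold.

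**Figure D1:**
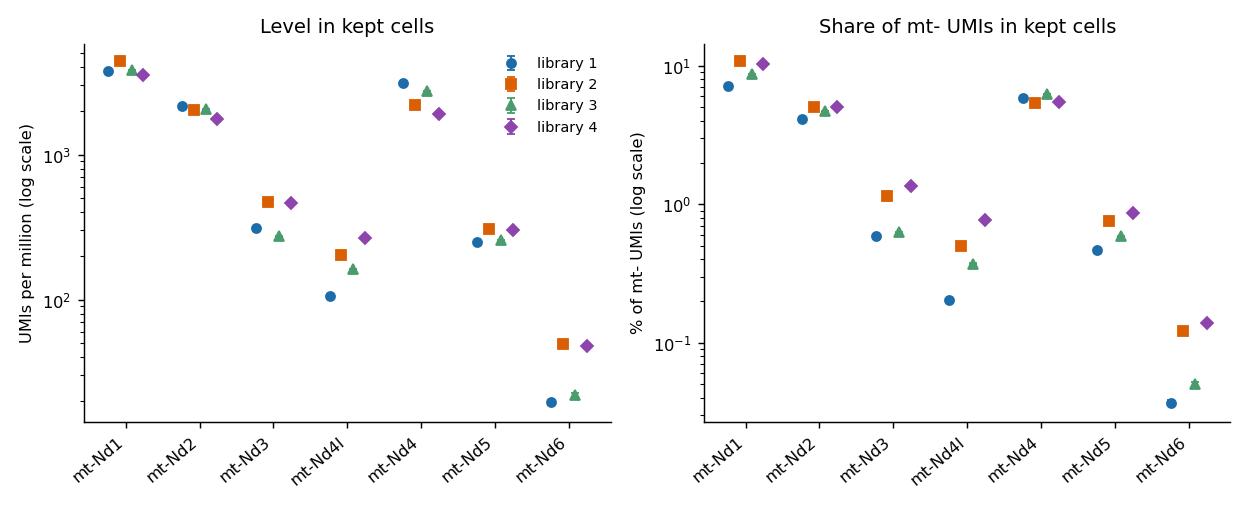
Level of each of the 7 complex I genes in kept cells of libraries 1 to 4, as UMIs per 1000000 (left) and as percent of all mt- UMIs (right), both on log axes, with 95% counting intervals mostly smaller than the symbols. mt-Nd6 sits lowest at 19.5 to 49.3 UMIs per 1000000, and mt-Nd3, mt-Nd4l and mt-Nd6 spread most between libraries.

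Detection followed these levels. mt-Nd1, mt-Nd2 and mt-Nd4 had a UMI in 99.57% to 99.93% of kept cells of every library. After thinning each cell to 5000 UMIs, mt-Nd6 was found in 8.81%, 20.6%, 10.5% and 21.5% of cells in libraries 1 to 4 (28.5%, 58.4%, 34.1% and 57.1% unthinned), and mt-Nd4l in 39.9%, 62.0%, 54.0% and 69.2% (82.3%, 96.0%, 92.2% and 96.1% unthinned). The order of the libraries was therefore the same at equal depth for mt-Nd4l, while libraries 2 and 4 changed places for mt-Nd6, whose levels in those libraries were close. In all, 20 kept cells had no complex I UMI.

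Per kilobase of annotated gene, mt-Nd1 stood alone at 3721 to 4602 CPM per kb. mt-Nd4 (1375 to 2267) and mt-Nd2 (1688 to 2096) overlapped, and their order differed between libraries. mt-Nd3 followed at 788 to 1344 and mt-Nd4l at 359 to 901, and within each library mt-Nd3 was above mt-Nd4l. mt-Nd5, the longest gene at 1824 bases, was at only 136 to 168 CPM per kb, and mt-Nd6 was lowest at 37.6 to 94.98. A 3′ method does not count in proportion to length, so this order describes counts per gene length and is not an order of mRNA levels. How fully the mRNAs of mt-Nd5 and mt-Nd6 were counted was not tested.

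The genes that share an mRNA were not counted in a fixed proportion. Per 100 UMIs of mt-Nd4 there were 3.41 (3.36 to 3.47), 9.28 (9.19 to 9.38), 5.88 (5.81 to 5.95) and 14.1 (14.0 to 14.3) UMIs of mt-Nd4l in libraries 1 to 4. The same order of libraries was seen for mt-Atp8 per 100 UMIs of mt-Atp6, the ATP synthase pair, at 0.345, 1.06, 0.519 and 1.66. mt-Nd6 per 100 UMIs of mt-Nd5, its overlapping neighbour on the other strand, was 7.85, 16.1, 8.59 and 15.96. Across the 13 mt- genes, the 5 that held under 1% of pooled mt- UMIs (mt-Nd3, mt-Nd4l, mt-Nd5, mt-Nd6 and mt-Atp8) ranged 1.84- to 4.72-fold in share of mt- UMIs between libraries, and the other 8 ranged 1.05- to 1.52-fold, a split noticed after the values were seen. Median UMIs per kept cell were also higher in libraries 2 and 4. Within a library, from the lowest to the highest quartile of cells by UMIs, the mt-Nd4l share of mt- UMIs went from 0.185% to 0.206%, 0.506% to 0.491%, 0.354% to 0.378% and 0.777% to 0.750% in libraries 1 to 4, while the median UMIs of these quartiles went from 13267 to 29678 in library 1 and from 15218 to 32571 in library 4. The mt-Nd3 share went from 0.541% to 0.626%, 1.09% to 1.18%, 0.574% to 0.675% and 1.29% to 1.40%, higher in the deepest quartile of every library. mt-Nd6 was also higher there in every library, mt-Atp8 was lower in every library, and mt-Nd5 had no common direction. The part of depth in these shares was not tested.

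The ranges were set beside those of the whole matrix. Of 11099 genes with at least 200 counts in every library, 41.0% ranged 1.5-fold or more in CPM, with a median range of 1.42-fold. Of the 7 complex I genes, 4 did so (mt-Nd3, mt-Nd4, mt-Nd4l and mt-Nd6), with a median range of 1.65-fold, and of the 6 other mt- genes 5 did. Without library 1, 3 or 4, 3 of the 7 complex I genes passed, against 29.6%, 36.2% and 32.1% of all genes, and without library 2, 4 passed against 35.2%.

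**Figure D2:**
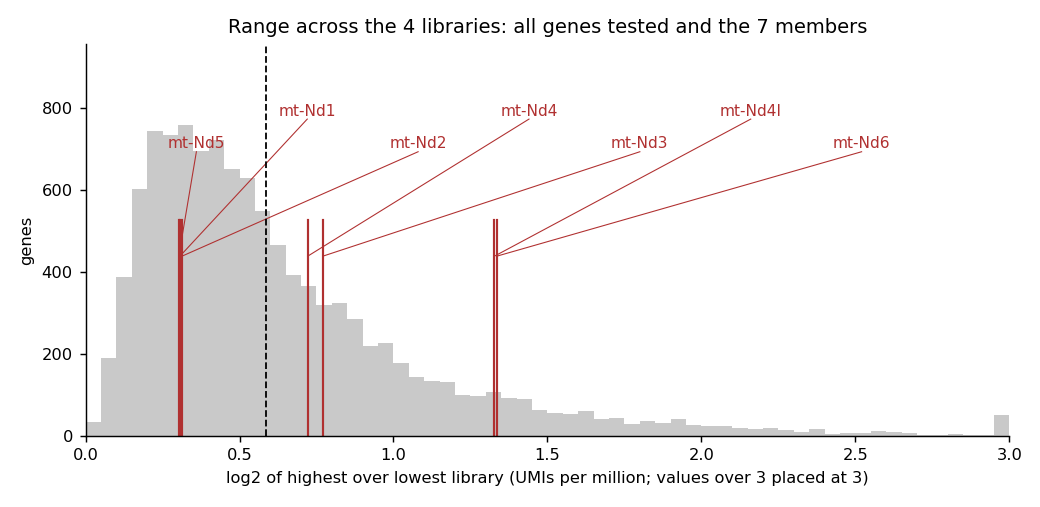
Histogram of the log2 ratio of the highest to the lowest library in UMIs per 1000000 for 11099 genes, with the 7 complex I genes as vertical lines and the 1.5-fold limit dashed. mt-Nd1, mt-Nd2 and mt-Nd5 lie to the left of the limit near 1.24-fold, and mt-Nd4l and mt-Nd6 lie near 2.5-fold.

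The nuclear genes of complex I were listed from textbook composition to set beside the mitochondrial ones. The 7 nuclear core subunits summed to 1158, 870, 1107 and 784 CPM in libraries 1 to 4, with library 3 above library 2. Of the 7, 4 ranged 1.5-fold or more, against 41.0% of all genes tested. Ndufv1, the NADH-binding subunit, was at 159, 109, 142 and 92.6 CPM, and Ndufs3, a core subunit of the peripheral arm, at 139, 91.3, 143 and 86.8 CPM. Ndufs1, the largest iron-sulfur subunit, had the narrowest range of the list at 65.5, 72.2, 64.4 and 67.8 CPM, followed by the iron-sulfur subunit Ndufs8 at 96.3, 86.1, 96.8 and 75.3 CPM. For Ndufv1, Ndufs3 and Ndufs8 libraries 1 and 3 were the higher pair, as for mt-Nd4.

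The 29 supernumerary (accessory) subunits summed to 6687, 5963, 6599 and 6015 CPM. Of them, 9 ranged 1.5-fold or more, against 41.0% of all genes, and their median range of 1.42-fold was that of all genes. Ndufa3 was at 54.0, 75.3, 65.5 and 106 CPM and Ndufa2 at 185, 251, 233 and 345 CPM, both lowest in library 1 and highest in library 4, whereas Ndufs5 (164, 177, 166 and 171 CPM) and Ndufa11 (269, 278, 271 and 248 CPM) differed little. The 14 assembly factors summed to 486, 471, 489 and 479.8 CPM, and 5 ranged 1.5-fold or more, with a median range of 1.45-fold. Ndufaf5, which modifies a core subunit during assembly, was at 13.1, 10.1, 10.4 and 7.54 CPM and the membrane-arm assembly factor Timmdc1 at 26.5, 18.8, 32.6 and 24.3 CPM, while Foxred1 (14.0, 13.9, 12.9 and 13.4 CPM) and Ndufaf6 (44.0, 43.9, 44.8 and 49.9 CPM) had the narrowest ranges.

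Among 22 nuclear genes of mitochondrial DNA replication, transcription and RNA handling, 8 ranged 1.5-fold or more, against 41.0% of all genes. Their median range was 1.35-fold and their sum was 1022, 1170.1, 1079 and 1186 CPM. Slirp, which with Lrpprc binds and stabilises mitochondrial mRNAs, had the widest range, at 83.4, 142, 106 and 199 CPM. Libraries 1, 3, 2 and 4 stood in rising order for Slirp, as they did for mt-Nd4l, Ndufa2 and Ndufa3 but not for mt-Nd4. How many of all genes share this order was not counted, and a link between these genes was not tested. Polg, the mitochondrial DNA polymerase, was at 30.7, 38.8, 35.4 and 54.3 CPM in the same order, and the mitochondrial poly(A) polymerase Mtpap (21.2, 22.5, 20.4 and 21.9 CPM) and the RNA helicase Supv3l1 (26.2, 28.1, 25.3 and 25.9 CPM) had the narrowest ranges.

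High-mitochondrial barcodes are those past both depth limits with more than 10% of UMIs from mt- genes, and are usually taken as damaged cells. They numbered 59, 377, 85 and 275 in libraries 1 to 4. The mt- share chose them, so only the make-up of their mt- UMIs was compared with kept cells. Complex I held 17.3%, 22.9%, 20.4% and 23.8% of mt- UMIs there, against 18.4%, 23.7%, 21.3% and 23.9% in kept cells. The ratio was 0.940 (0.928 to 0.953), 0.967 (0.961 to 0.972), 0.958 (0.947 to 0.969) and 0.994 (0.988 to 1.00), below 1 in all 4 libraries and with an interval below 1 in 3. High-mitochondrial barcodes were shallower, with median UMIs of 13727, 7767, 8847 and 6989. When only barcodes of 6000 to 15000 UMIs were compared, the ratio turned to 1.01 (0.987 to 1.03), 1.02 (1.01 to 1.03), 1.02 (1.01 to 1.03) and 1.03 (1.02 to 1.04), above 1 in all 4 libraries, so the direction of the small difference turned with the barcodes compared. In that window the high-mitochondrial barcodes, 35 to 366 per library, still had lower median UMIs (7364 to 10378) than kept cells (12379 to 13150), so depth was brought closer but not made equal.

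The 7 genes were not alike in these barcodes. mt-Nd6 differed most, going from 0.0369% to 0.0670%, 0.121% to 0.168%, 0.0503% to 0.0843% and 0.138% to 0.212% of mt- UMIs in libraries 1 to 4. Its ratios were 1.82 (1.42 to 2.32), 1.39 (1.29 to 1.498), 1.68 (1.37 to 2.04) and 1.54 (1.42 to 1.66), resting on 66 to 765 UMIs per library, and between 1.48 and 2.34 in the UMI window. mt-Nd2 was higher in 4 of 4 libraries (1.02 to 1.15, and 1.07 to 1.12 in the UMI window), although its interval in library 1 included 1. mt-Nd4 was lower in 4 of 4, with ratios of 0.927, 0.919, 0.883 and 0.906 and between 0.880 and 0.937 in the UMI window.

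mt-Nd1 was lower in all 4 libraries (0.896, 0.914, 0.971 and 0.926), but in that window its ratio was 0.999 to 1.10, above 1 in 3 libraries. mt-Nd4l was clearly higher in libraries 2 and 4 (1.23, 1.19 to 1.28, and 1.40, 1.35 to 1.45), while the intervals in libraries 1 and 3 included 1. In the UMI window it was at 1.11 to 1.37, above 1 in 4 of 4 libraries, again with intervals clear of 1 only in libraries 2 and 4. mt-Nd5 ratios lay between 0.880 and 0.997 and those of mt-Nd3 between 0.960 and 1.00, with no interval of mt-Nd3 clear of 1. Within the window of 6000 to 15000 UMIs mt-Nd3 was at 1.02 to 1.08, above 1 in 4 of 4 libraries and with an interval clear of 1 in library 4. There mt-Nd5 was at 0.940 to 1.01, above 1 only in library 4. Of the other mt- genes, mt-Atp6 (ATP synthase) was higher in 4 of 4 libraries, at 1.12 to 1.14, and mt-Co1 (0.822 to 0.955) and mt-Cytb (0.862 to 0.917), of complexes IV and III, were lower in 4 of 4, all in the same direction in the UMI window. The complex IV genes mt-Co3 (1.02 to 1.06) and mt-Co2 (0.999 to 1.06) had ratios of 0.976 to 1.00 and 1.01 to 1.02 in the UMI window. mt-Atp8 was at 1.05 to 1.35, with intervals clear of 1 only in libraries 2 and 4, as for mt-Nd4l. In the UMI window it was at 0.996 to 1.33.

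**Figure D3:**
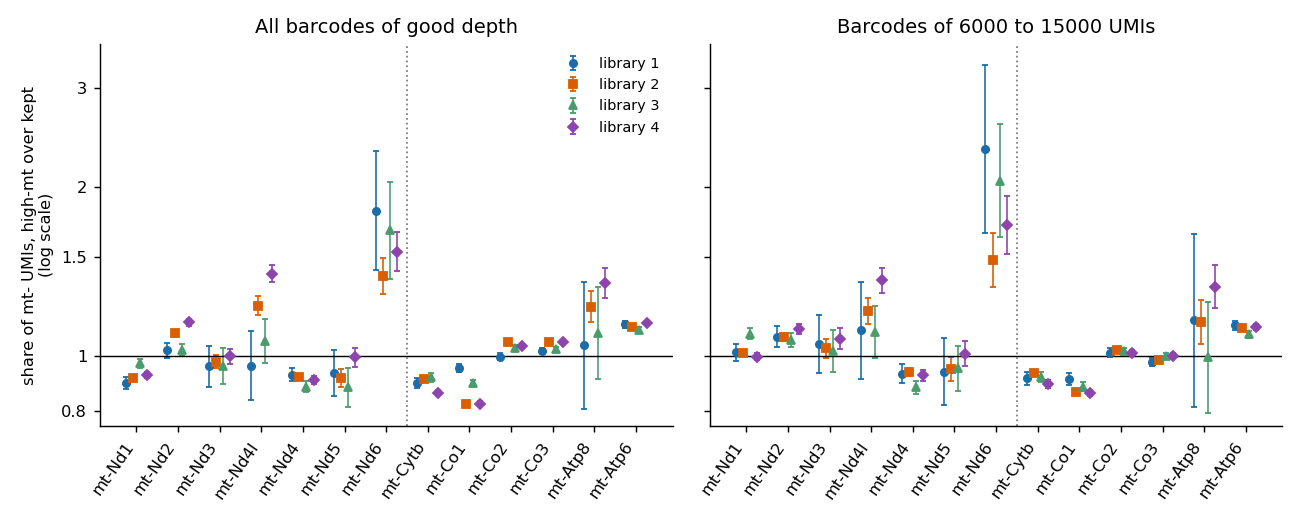
Share of mt- UMIs in high-mitochondrial over kept barcodes for each mt- gene and library (log axis, 95% counting intervals), for all barcodes of good depth (left) and for barcodes of 6000 to 15000 UMIs (right), with complex I genes left of the dotted line. mt-Nd6 lies above 1 in every library in both panels and mt-Nd4 below 1, whereas mt-Nd1 moves from below 1 on the left to 0.999 to 1.10 on the right.

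A difference of 1.5-fold or more, with 1 sign over the 4 libraries, was seen in 2.33% of 2146 genes with at least 50 counts in these barcodes, nuclear genes taken per nuclear UMI, and in 0 of the 7 complex I genes. mt-Nd6 missed it through library 2, where its ratio was 1.39, against 1.82, 1.68 and 1.54 in libraries 1, 3 and 4. The count over all genes was 224 (8.92%) without library 1, the library with the fewest such barcodes. Beside the mt- genes, Malat1, a nuclear-retained RNA, was at 7890.2, 15059.7, 9488 and 21322 per 1000000 nuclear UMIs in high-mitochondrial barcodes against 4317, 4389, 4423 and 5342 in kept cells, and ribosomal protein genes were at 29.6%, 20.5%, 25.9% and 20.3% of nuclear UMIs against 31.3%, 27.6%, 29.4% and 28.6%. Their part in the mt- make-up was not tested.

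A further 969, 2064, 1106 and 1595 barcodes with over 10% mt- UMIs fell below a depth limit, with median UMIs of 2447 to 3196. There complex I held 16.8%, 22.6%, 19.6% and 23.2% of mt- UMIs, with a ratio to kept cells of 0.912 to 0.971 and every interval below 1. mt-Nd6 was again higher in 4 of 4 libraries (1.25 to 1.39) and mt-Nd2 too (1.05 to 1.17), and mt-Nd1 (0.875 to 0.900), mt-Nd3 (0.929 to 0.971), mt-Nd4 (0.860 to 0.910) and mt-Nd5 (0.722 to 0.896) were lower in 4 of 4.

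The make-up also varied along the mt- share within the kept range. In library 2 complex I held 27.6% (27.4 to 27.9) of mt- UMIs in cells with at most 2% mt- UMIs, 23.5% between 4% and 5%, and 22.6% between 6% and 8%. Library 1 went from 21.4% (20.9 to 22.0) to 18.7% and 18.1%, and library 3 from 22.5% (22.2 to 22.8) to 21.3% and 20.7%. Library 4 did not share this course, at 23.4% (23.3 to 23.6), 23.9% and 23.8%. In these 3 libraries mt-Nd1 went the same way as the sum, from 13.2% to 9.87% of mt- UMIs in library 2, from 8.90% to 6.84% in library 1 and from 9.36% to 8.22% in library 3. In library 4 mt-Nd1 was at 10.4% and 9.79% in the same bins, lower at the higher mt- share although the sum was not. The mt- UMIs enter both quantities, so the course is a description, and the bin of lowest mt- share held 102 to 865 cells per library.

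**Figure D4:**
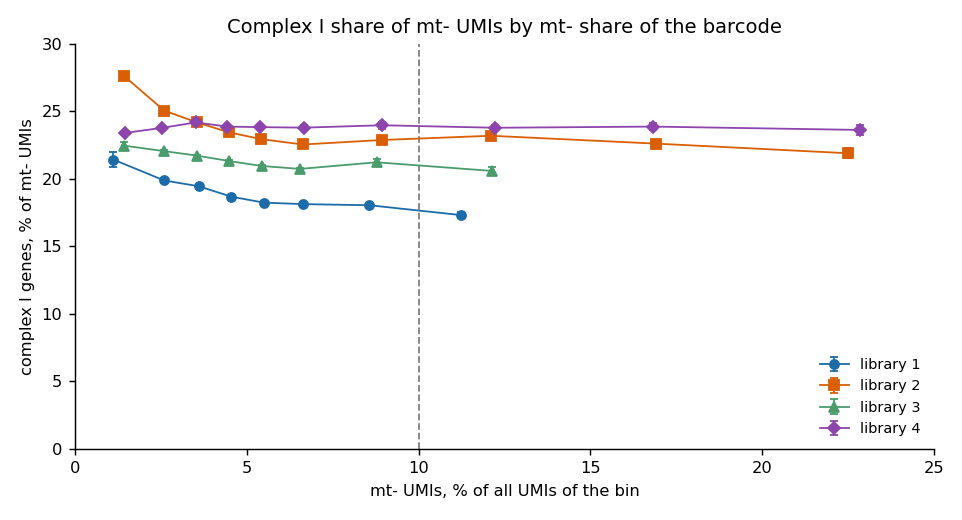
Complex I genes as percent of mt- UMIs against the mt- percent of UMIs in bins of barcodes past both depth limits, by library, with 95% counting intervals and the 10% limit dashed. Libraries 1, 2 and 3 fall from the lowest bins to 8%, and library 4 stays between 23.4% and 24.2%.

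Kept cells were also divided by panels of nuclear genes, with no mt- gene in any panel. Naive-high cells had at least 10 UMIs per 10000 of 10 naive pluripotency genes such as Nanog and Esrrb and fewer than 10 of 9 formative genes such as Dnmt3b and Otx2, formative-high cells the reverse, and keratin-high cells at least 5 of Krt8 and Krt18. These are ranges cut from a score, and 2761 kept cells had a naive score between 8 and 12 and 3348 a formative score in that range. Naive-high cells made up 93.3%, 70.9%, 71.7% and 35.1% of kept cells in libraries 1 to 4, and formative-high cells numbered 98, 1470, 412 and 3262.

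Complex I transcripts were lower in formative-high than in naive-high cells as a share of all UMIs, in every library. They made up 0.768%, 0.881%, 0.806% and 0.788% of UMIs in formative-high cells, against 0.990%, 0.987%, 0.987% and 0.890% in naive-high cells of libraries 1 to 4. The ratios were 0.775 (0.764 to 0.786), 0.893 (0.889 to 0.896), 0.817 (0.811 to 0.823) and 0.885 (0.882 to 0.889), with a median of 0.851. In cells of 15000 to 25000 UMIs only, they lay between 0.742 and 0.896. The sum of all mt- genes had ratios of 0.741 to 0.928.

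Within the mt- UMIs, complex I accordingly differed little, at 19.2%, 23.0%, 21.7% and 23.6% in formative-high and 18.4%, 23.9%, 21.2% and 24.4% in naive-high cells. The ratio was above 1 in libraries 1 and 3 (1.05 and 1.02) and below 1 in libraries 2 and 4 (0.962 and 0.965), all with intervals clear of 1, and in library 1 it was 0.996 (0.976 to 1.02) in cells of 15000 to 25000 UMIs. The difference between cell states thus had no common direction over the 4 cultures.

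mt-Nd1 was at 2955, 3839, 3285 and 3318 CPM in formative-high and at 3824, 4548, 4082 and 3924 CPM in naive-high cells, lower in 4 of 4 libraries at 0.773 to 0.846. mt-Nd2 (0.778 to 0.912), mt-Nd3 (0.893 to 0.946), mt-Nd4 (0.743 to 0.931) and mt-Nd6 (0.682 to 0.854) were also lower in 4 of 4. The intervals of mt-Nd3 and mt-Nd6 in library 1 included 1, where mt-Nd6 had 37 UMIs in formative-high cells. mt-Nd5 and mt-Nd4l had no common direction, with CPM ratios of 0.885 to 1.02 and 0.960 to 1.05. Within the mt- UMIs mt-Nd5 and mt-Nd4l were higher in formative-high cells of every library, mt-Nd5 from 0.467% to 0.558%, 0.733% to 0.810%, 0.578% to 0.676% and 0.824% to 0.904%, and mt-Nd4l by 1.05- to 1.32-fold. The same direction held in cells of 15000 to 25000 UMIs, at 1.08 to 1.22 for mt-Nd5 and 1.08 to 1.245 for mt-Nd4l, though both intervals in library 1, with 52 such formative-high cells, included 1. Of the other mt- genes, mt-Co1 was also higher within the mt- UMIs in 4 of 4 libraries (1.08 to 1.11) and mt-Cytb lower (0.885 to 0.906). mt-Atp8 was above 1 in 4 of 4 (1.01 to 1.53), with intervals clear of 1 in libraries 1 and 2.

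Keratin-high cells, with 61, 32, 659 and 265 cells in libraries 1 to 4, had the lowest complex I levels of the 5 ranges in every library, at 0.711%, 0.832%, 0.732% and 0.663% of UMIs. These were 0.718, 0.842, 0.741 and 0.745 times the naive-high values. In cells of 15000 to 25000 UMIs the ratios were 0.638, 0.953, 0.736 and 0.729, and the one in library 2, from 15 keratin-high cells, was above the 0.896 of formative-high cells there. All mt- genes summed were at 0.681, 0.889, 0.729 and 0.783 times their naive-high level in keratin-high cells, and the complex I share of mt- UMIs had no common direction, at 1.05, 0.947, 1.02 and 0.951 times. mt-Nd6 was lowest relative to naive-high cells, at 7.87, 33.7, 11.8 and 32.2 CPM against 20.04, 50.5, 24.8 and 54.6 CPM, with 15, 28, 225 and 225 mt-Nd6 UMIs behind the keratin-high values. mt-Nd4 was at 0.759 to 0.950 times its naive-high level. It held a larger part of the mt- UMIs in 4 of 4 libraries, at 6.57%, 5.74%, 6.98% and 5.97% against 5.89%, 5.37%, 6.16% and 5.39%. This was not particular to complex I, as the part held by mt-Cytb was also larger in 4 of 4 libraries (1.04 to 1.16 times). That of mt-Co2 was at 1.00 to 1.05 times, with intervals above 1 in 2 libraries. Median UMIs were higher in keratin-high cells (22618 to 26919) than in naive-high cells (18233 to 21922), and in cells of 15000 to 25000 UMIs the mt-Nd4 ratio within the mt- UMIs was 1.08 to 1.15, there with 15 to 224 keratin-high cells. Pou5f1 was at 332 to 562 CPM in keratin-high and 717 to 851 CPM in naive-high cells.

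The remaining cells were those high or low in both panels. Complex I held 0.881%, 0.973%, 0.998% and 0.920% of UMIs in both-high cells (12, 588, 61 and 576 cells) and 0.817%, 0.979%, 0.879% and 0.784% in both-low cells. Both-high cells were above naive-high cells in libraries 3 (where the interval of the ratio, 0.994 to 1.03, included 1) and 4 and below them in libraries 1 and 2, and both-low cells were below naive-high cells in 4 of 4 libraries, at 0.825, 0.992, 0.891 and 0.881 times. The sum of the nuclear core subunits differed less between naive-high (1157, 880.0, 1118 and 790.1 CPM) and formative-high cells (1173, 842, 1107 and 785 CPM), lower in 3 of 4 libraries. That of the supernumerary subunits had no common direction, at 6662, 6015, 6537 and 6022 CPM in naive-high and 6885, 5812, 6568 and 6007 CPM in formative-high cells.

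**Figure D5:**
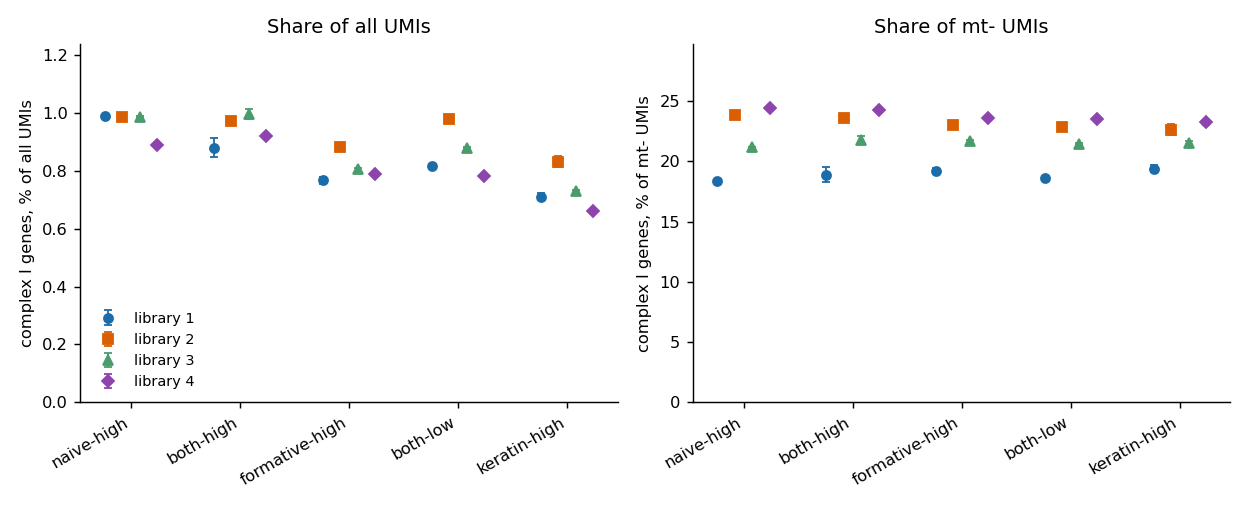
Complex I genes as percent of all UMIs (left) and of mt- UMIs (right) in 5 ranges of kept cells, by library, with 95% counting intervals. On the left, formative-high (0.768% to 0.881%) and keratin-high cells (0.663% to 0.832%) lie below naive-high cells (0.890% to 0.990%) of the same library, and on the right the libraries keep their order in every range.

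Single cells differed by more than sampling of UMIs gives. The 5th and 95th percentiles of the complex I share of UMIs were 0.559% and 1.39%, 0.493% and 1.501%, 0.487% and 1.42%, and 0.322% and 1.42% in kept cells of libraries 1 to 4. The SD over cells was 3.56, 4.84, 4.17 and 5.59 times that of binomial sampling. For the share of mt- UMIs, in cells with at least 100 mt- UMIs, it was 2.26, 2.41, 2.11 and 1.79 times. These factors rise with the UMIs behind a share, so they cannot be compared between the 2 shares. The cells are not replicates and part of this spread lies between the ranges described above.

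Genes with a like pattern were sought over 15 groups of cells (a range within a library, at least 100 cells each), by the Pearson r of log2 CPM after each library's mean was taken off. The groups were cut by the naive, formative and keratin panels, so any gene that follows these ranges can reach a high r. The groups of a library also share its depth and processing, so r is a description. The 6 other mt- genes summed had an r of 0.979 with the complex I sum, and each member, itself a part of that sum, from 0.766 for mt-Nd4l to 0.995 for mt-Nd2. The nuclear genes most like it, of 10315 with a median r of -0.17, were Timm8a2 (0.986), of a family of mitochondrial import chaperones, Nos1 (0.985), a nitric oxide synthase, 2900041M22Rik (0.981), Mcf2 (0.981) and Sap25 (0.979). High values were not rare, as the 95th percentile of r over nuclear genes was 0.897. Timm8a2 rests on only 3014 counts in kept cells. The median r was 0.256 over the 7 nuclear core subunits, -0.17 over the 29 supernumerary subunits, 0.304 over the 14 assembly factors and 0.472 over the 22 genes of mitochondrial gene expression.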

How the data were processed

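The authors aligned 4 single-cell libraries (10x Genomics Chromium 3′ v3) to mm10 with Cell Ranger 6.1.2 (per the submitters' processing notes) and joined them with its aggregation step, which subsamples reads to even out depth. The deposited matrix holds UMI counts per gene, taken after this joining, for 41142 barcodes, low-depth ones included. UMIs were summed per gene, library and class of barcode, and CPM are UMIs per 1000000. Intervals are exact Poisson for levels, Clopper-Pearson for shares and log-normal for ratios, at 95%. A count of 0 would allow 0.0150 to 0.0180 CPM (3 counts). No test was made. Libraries could not be assigned to samples, so Srrm2 hKO was not tested against WT, and cells are not replicates. Doublets were not called, and cells over 2 times the median UMIs were left out in an alternative. Gene sequences came from GENCODE on GRCm38, and nuclear copies were sought among its annotated transcripts with BLAST 2.17.0. Scripts (Python 3.11.15, numpy 2.4.6, scipy 1.17.1) were tested on simulated data. The text names the 7 members, the 6 other mt- genes, the 2 widest and 2 narrowest ranges of each nuclear list, the 5 nuclear genes of most like pattern, and Malat1, ribosomal genes, Srrm2, Pou5f1 and Sox2 as checks. The members and gene lists were chosen with earlier results of these data known. The comparisons within a window of UMIs, the limit of 100 mt- UMIs and the gene counts without each library were added after seeing the data. The alternatives are given in the closing section.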

Additional observations from a re-analysis of the deposited data

How the results depend on the processing

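No paired analysis was possible because the libraries carry no sample label and no result comes from a test. Leaving out cells over 2 times the median UMIs gave a range of the complex I share of UMIs of 1.16-fold, and its other values were 1.15 (mean of per-cell shares), 1.14 (mt- limit 5%), 1.17 (no mt- limit) and 1.17 (cells with at least 100 mt- UMIs), with 1.05 to 1.18 when each library was left out. For the share of mt- UMIs the range was 1.31-fold (cells over 2 times the median left out), 1.30 (per-cell shares), 1.27 (mt- limit 5%), 1.31 (all barcodes) and 1.30 (mt-Nd6 left out), and 1.12 without library 1, 1.29 without library 4 and 1.30 without either of the others. The formative-high over naive-high ratio of the share of UMIs was 0.846, 0.866, 0.847 and 0.839 (high-UMI cells left out, per-cell shares, panel limits 1.5 times lower, 15000 to 25000 UMIs) and 0.817 to 0.885 without each library. For the share of mt- UMIs, with a median of 0.994, it was 0.986, 0.972 and 0.981 (per-cell shares, panel limits 1.5 times higher, 15000 to 25000 UMIs) and 0.965 to 1.02 without each library. The high-mitochondrial over kept ratio, with a median of 0.962, was 0.954 (limits on log10 values), 0.975 (high-mitochondrial limit 20%), 0.942 (low-depth barcodes included) and 0.958 to 0.967 without each library, and turned to 1.02 in barcodes of 6000 to 15000 UMIs, as did those of mt-Nd1, to 1.02, and mt-Nd3, from a median of 0.969 to 1.04. The 20% limit left few barcodes in libraries 1 and 3, where 51 of 59 and 62 of 85 high-mitochondrial barcodes lay between 10% and 15%. The mt-Nd4 ratio of formative-high over naive-high cells within the mt- UMIs, with a median of 1.01, was 0.993 with panel limits 1.5 times higher. Causes were not tested. Genes at least 1.5-fold different in high-mitochondrial barcodes numbered 5 (at least 200 counts), 10 (limit 20%, 35 genes tested) and 50 to 224 without each library, and genes with a 1.5-fold range 3377 to 4032 without each library. Of 448 alternative values, 260 lay within the counting interval of the value reported or, for counts of genes, within 1.5 times it. Counting error is small at this depth, but mt-Nd6 rests on under 100 UMIs in some classes, with 66 in high-mitochondrial barcodes and 15 in keratin-high cells of library 1. Variation between cultures cannot be told apart from that between groups.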

Other observations

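Barcodes below a depth limit but with at most 10% mt- UMIs numbered 389, 781, 613 and 840 in libraries 1 to 4. mt-Nd6 was higher within their mt- UMIs than in kept cells in 4 of 4 libraries, at 1.32 to 2.63 times, and mt-Nd1 was lower in 4 of 4, at 0.843 to 0.971 times. mt-Nd4 did not share a direction there (0.936 to 1.01). Malat1 was at 7570.5 to 18119 per 1000000 nuclear UMIs in these barcodes.

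Across quartiles of kept cells by UMIs, the complex I share of mt- UMIs went from 17.2% to 19.1%, 22.8% to 24.1%, 19.9% to 21.9% and 23.3% to 24.2% from the shallowest to the deepest quartile of libraries 1 to 4, while its share of all UMIs went from 0.968% to 0.985%, 0.994% to 0.967%, 0.953% to 0.903% and 0.860% to 0.802%.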
